A study of Rattus norvegicus with 10 samples.

Results

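The genes described here are the zinc finger protein genes whose rat symbol consists of Zfp, a number and at most 1 further letter. Of the 17168 gene symbols in the table of estimated counts, 175 fit this rule once Zfp36, which encodes an RNA-binding protein of a different kind, had been set aside. The rule uses the symbol and no measured value. Female TgF344-AD rats gave the left hippocampus at 11 months of age, and 10 animals were sequenced. All 10 animals carried the transgenes of this Alzheimer's disease model, which the mouse prion promoter drives, and no rats without the transgenes are analysed here. The untreated group of 5 ate ordinary rodent chow, and the RG2833 group of 5 was fed RG2833 at 750 mg per kg in the chow from the age of 5 months, over 6 months. This compound is an inhibitor of 2 histone deacetylases, HDAC1 and HDAC3. Nothing in the labels says that the animals shared a litter, cage or day, so p-values measure the spread between these 10 samples.

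Most proteins of the Zfp genes carry tandem zinc fingers of the C2H2 type, each of which folds around a zinc ion and can read a few bases of DNA. Many also carry a KRAB domain, which binds the corepressor TRIM28. TRIM28 in turn gathers the histone methyltransferase SETDB1, heterochromatin protein HP1 and the NuRD complex, whose histone deacetylases are HDAC1 and HDAC2, and the bound chromatin is silenced. Other members have no KRAB domain and act as ordinary transcription factors, as RNA-binding proteins or as ubiquitin and SUMO ligases. The symbol is a name and not a domain, so the list holds all of these kinds.

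The total estimated count per animal ran from 8764266 to 11311673. Ribosomal RNA loci took a share of counts of 2.70 to 5.36% in untreated and 1.13 to 1.96% in RG2833 animals, so the groups did not overlap. All 6 listed markers of excitatory neurons were detected, and their summed level was 2252 to 3498 CPM in untreated and 3756 to 4485 CPM in RG2833 animals (CPM, counts scaled to the same total of tested genes in each library, after TMM adjustment). Camk2a was the one of these 6 that was called, and higher with RG2833, and Aif1 was the one of 6 microglial markers that was called, and lower. Of the 6 choroid plexus markers, Ttr and Clic6 passed the filter on low counts, and their sum reached 2404 CPM in untreated replicate 1, whereas the other 9 animals had 3.89 to 41.8 CPM. The same animal had the highest summed level of the 5 oligodendrocyte markers, 16513 CPM, but the untreated median was 6105 CPM (lowest 5334 CPM), and RG2833 animals had 8432 to 11405 CPM with a median of 8923 CPM. None of the 5 astrocyte, 6 inhibitory neuron, 5 oligodendrocyte, 2 oligodendrocyte precursor, 5 endothelial and mural or 3 ependymal markers was called. In bulk tissue, fewer cells of a type and less RNA per cell cannot be told apart, which holds for every value below.

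Treatment with RG2833 was accompanied by small changes in a few Zfp genes. Zfp574, Zfp579, Zfp148, Zfp598 and Zfp362 rose by 1.27- to 1.30-fold, and Zfp566 fell to 0.684 of its untreated level. These 6 were called, that is, passed an adjusted p under 0.05 (edgeR's quasi-likelihood test, Benjamini-Hochberg adjustment over 11791 tested genes), among the 172 Zfp genes that passed the filter on low counts. That is 3.49% of the tested Zfp genes, against 5.08% of all tested genes (2.41% called higher and 2.67% called lower), so the share of Zfp genes called was near the background and slightly below it. The groups did not overlap for 11 Zfp genes, 6.40% of those tested, against 7.27% of all tested genes. At an unadjusted p under 0.05 there were 34 Zfp genes, 19.8% of those tested against 24.5% of all tested genes.

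The 3 Zfp genes that did not pass the filter were Zfp352, Zfp7 and Zfp93. Zfp352 had 0 counts in every animal, which allows up to between 0.265 and 0.342 CPM per library (3 counts, covering counting error only). Zfp7 had 101 counts and Zfp93 57 counts over the 10 animals, at most 18 and 14 in any one. Zfp93 had 14, 7, 8, 6 and 7 counts in untreated animals and 5, 1, 3, 3 and 3 in RG2833 animals, with no overlap before scaling for depth. In the fit with no filter on low counts its log2 fold change was -1.49 ± 0.45 (SE; edgeR adjusted p = 0.0842) and that of Zfp7 was 0.28 ± 0.40 (edgeR adjusted p = 0.724), so neither passed.

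Zfp574, a gene with an array of C2H2 fingers, had the smallest p. It was 43.5, 41.0, 41.0, 48.8 and 43.3 CPM in untreated replicates 1 to 5 and 59.0, 57.1, 58.3, 48.9 and 59.7 CPM in RG2833 replicates 1 to 5. The groups met but did not overlap, because RG2833 replicate 4 lay just above untreated replicate 4. The log2 fold change was 0.38 ± 0.08 (SE; edgeR adjusted p = 0.0231).

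Zfp579 was 17.2, 16.0, 17.2, 17.7 and 18.5 CPM in the untreated animals and 22.0, 22.7, 22.0, 21.3 and 24.8 CPM in the RG2833 animals. The gap between the groups, from 18.5 to 21.3 CPM, was wider than the SD of either group (0.918 and 1.34 CPM). Its log2 fold change was 0.38 ± 0.08 (SE; edgeR adjusted p = 0.0257).

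Zfp148 encodes ZBP-89, a Krüppel-type transcription factor that binds GC-rich promoter sequence. Its level was 48.3, 52.9, 54.8, 65.3 and 62.4 CPM in untreated animals and 69.7, 73.0, 74.3, 69.5 and 83.0 CPM in RG2833 animals. Each RG2833 animal lay above each untreated animal, and untreated replicates 4 and 5 lay nearest to the treated range. The log2 fold change was 0.38 ± 0.09 (SE; edgeR adjusted p = 0.0357).

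Zfp598 encodes the ubiquitin ligase that marks collided ribosomes, a role in translation quality control and not in transcription. Its level was 36.9, 41.4, 36.9, 45.5 and 34.6 CPM in untreated animals and 46.7, 50.6, 53.1, 44.7 and 54.3 CPM in RG2833 animals. The groups overlapped, since RG2833 replicate 4 was below untreated replicate 4. The log2 fold change was 0.35 ± 0.09 (SE; edgeR adjusted p = 0.0444).

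Zfp362 was 16.2, 20.5, 16.5, 19.9 and 19.9 CPM in untreated animals and 24.0, 24.3, 23.6, 23.2 and 23.0 CPM in RG2833 animals. The treated animals were closely grouped (SD 0.537 CPM, n = 5), the untreated animals less so (SD 2.06 CPM, n = 5), and the groups did not overlap. Its log2 fold change was 0.34 ± 0.09 (SE; edgeR adjusted p = 0.0479).

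Zfp566, a KRAB zinc finger gene, was the only called member that fell. It was 11.4, 11.2, 10.3, 11.7 and 8.99 CPM in untreated animals and 6.77, 8.38, 7.65, 5.38 and 8.47 CPM in RG2833 animals. The lowest untreated value, in replicate 5, lay just above the highest treated value. Its log2 fold change was -0.55 ± 0.14 (SE; edgeR adjusted p = 0.0469), the largest in size of the 6. Its deposited counts had decimals in all 10 animals, which shows that the counting divided reads between this gene and others, so its level is less certain than those of the other 5, whose counts were whole.

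**Figure D1:**
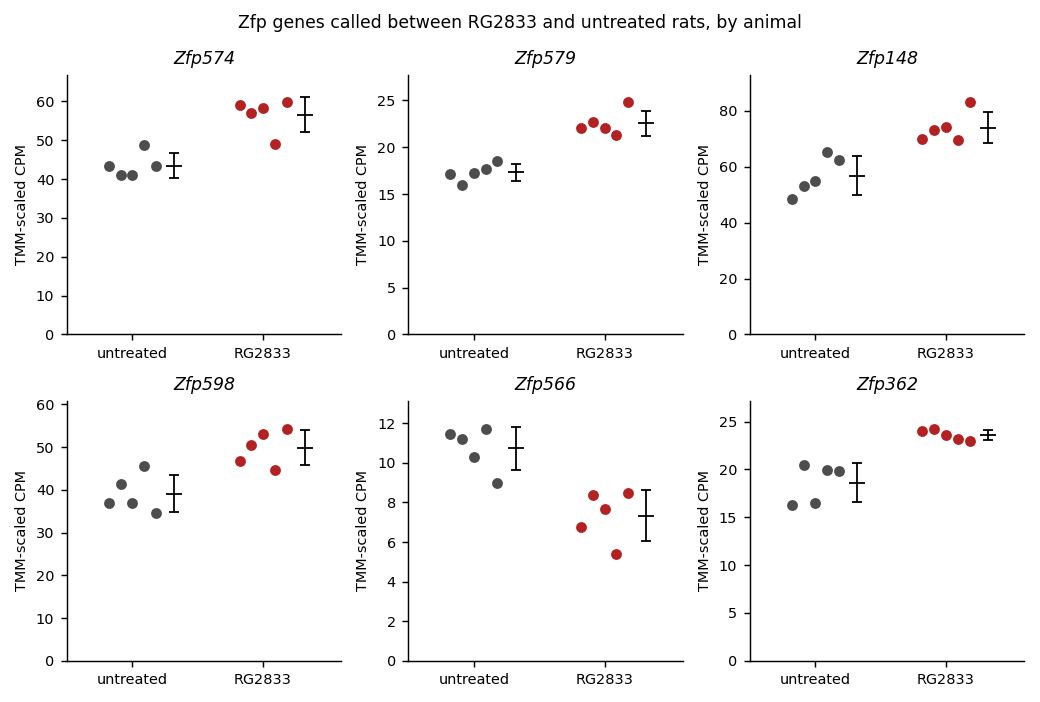
Level of each called Zfp gene in TMM-scaled CPM (y axis, from 0) in the 5 untreated (dark grey) and 5 RG2833 (red) animals, 1 point per animal, with the mean and SD beside each group. In every panel but that of Zfp598 the groups do not overlap, and Zfp566 is the gene whose treated points lie lower.

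The calls varied with the animals included. Across the 10 fits that each left out 1 animal, the number of Zfp genes called ran from 0 to 12. It was 0 without untreated replicate 3 and without RG2833 replicate 1, 2, 3 or 5 (26 to 31 Zfp genes then had an unadjusted p under 0.05), 7 without untreated replicate 5 and 12 without untreated replicate 4. The number over all tested genes moved as well, from 98 to 130 in the 5 fits with 0 Zfp genes to 902 without untreated replicate 5 and 1556 without untreated replicate 4. Zfp574 was called in 5 of the 10 fits, Zfp579 in 4, Zfp148, Zfp566 and Zfp362 in 2 each and Zfp598 in 1. With the share of ribosomal RNA or the excitatory neuron marker score as a covariate, 0 Zfp genes were called by edgeR (10 and 12 with an unadjusted p under 0.05), against 2 and 5 of all tested genes. The log2 fold change of Zfp566 was then -0.56 and -0.66, that of Zfp362 0.37 and 0.24, that of Zfp579 0.29 and 0.32, and that of Zfp574 0.25 and 0.26. For Zfp598 it was 0.26 and 0.18, and for Zfp148, which moved the most, 0.20 and 0.15. Both covariates separated the groups, so the treatment and these measures cannot be told apart.

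The stretch around the annotated start is shown for the 5 called genes with a matched promoter, so that the 4 that rose and the 1 that fell can be compared, and Zfp362 was not matched. Each runs from 250 bases before to 50 after the start, 5′ to 3′ (RefSeq, GRCr8, a later build than the rn6 named in the submitters' processing notes). The stretches lie at chr1:89799977-89800276, plus strand, chr1:77876169-77876468, plus strand, chr11:80890828-80891127, minus strand, chr10:14198574-14198873, plus strand and chr1:94460616-94460915, minus strand. Capitals mark matches on either strand to GGGCGG (the GC box bound by Sp factors) or CCAAT (the NF-Y box), and overlapping matches are joined.
Zfp574: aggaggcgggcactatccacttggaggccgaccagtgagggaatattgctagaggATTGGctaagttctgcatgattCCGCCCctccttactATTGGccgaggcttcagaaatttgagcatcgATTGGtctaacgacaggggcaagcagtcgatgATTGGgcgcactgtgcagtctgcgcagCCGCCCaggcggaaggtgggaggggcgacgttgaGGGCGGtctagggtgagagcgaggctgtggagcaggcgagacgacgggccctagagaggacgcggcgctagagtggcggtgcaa
Zfp579: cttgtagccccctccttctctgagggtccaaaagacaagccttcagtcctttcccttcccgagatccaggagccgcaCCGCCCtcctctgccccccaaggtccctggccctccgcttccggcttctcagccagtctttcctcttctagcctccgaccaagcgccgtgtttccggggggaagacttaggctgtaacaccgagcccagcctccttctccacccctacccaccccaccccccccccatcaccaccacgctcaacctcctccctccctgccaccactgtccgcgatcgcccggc
Zfp148: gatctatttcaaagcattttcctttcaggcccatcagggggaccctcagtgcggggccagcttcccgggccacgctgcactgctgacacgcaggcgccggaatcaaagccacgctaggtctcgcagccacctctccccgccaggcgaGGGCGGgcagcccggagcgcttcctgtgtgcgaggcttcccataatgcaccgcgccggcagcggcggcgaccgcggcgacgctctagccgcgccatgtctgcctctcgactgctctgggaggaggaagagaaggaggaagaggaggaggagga
Zfp598: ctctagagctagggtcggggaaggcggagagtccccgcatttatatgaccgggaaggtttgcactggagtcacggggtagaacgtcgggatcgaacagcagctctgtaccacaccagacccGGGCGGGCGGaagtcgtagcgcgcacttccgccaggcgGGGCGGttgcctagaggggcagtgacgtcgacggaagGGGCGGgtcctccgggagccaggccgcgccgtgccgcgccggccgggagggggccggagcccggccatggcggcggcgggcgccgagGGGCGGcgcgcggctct
Zfp566: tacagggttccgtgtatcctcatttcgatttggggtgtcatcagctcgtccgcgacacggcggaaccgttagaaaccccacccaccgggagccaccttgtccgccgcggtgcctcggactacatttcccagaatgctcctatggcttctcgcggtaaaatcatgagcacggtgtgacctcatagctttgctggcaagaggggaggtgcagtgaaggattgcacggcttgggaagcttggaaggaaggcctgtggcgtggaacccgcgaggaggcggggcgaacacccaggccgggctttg

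Zfp574 held 3 GC box and 4 CCAAT box matches, Zfp579 and Zfp148 1 GC box each, and Zfp598 5 GC boxes, whereas neither motif matched in the Zfp566 stretch. The number of CpG dinucleotides was 22 in Zfp574, 15 in Zfp579, 27 in Zfp148, 40 in Zfp598 and 23 in Zfp566. Promoter sequence was matched to 135 of the 175 Zfp genes. A GC box match was present in 47.4% of them, against 62.5% of 8826 tested genes with a promoter and 34.9% of all 27457 promoters. For CCAAT the shares were 39.3%, 37.2% and 37.7%. Matches on either strand were also counted for CCGGAAGT, the site of ETS factors (10.4% of Zfp genes, 7.89% of tested genes, 4.01% of all promoters) and for the extended YY1 motif (5.19%, 2.57% and 1.16%). For the palindromic NRF1 motif the shares were 2.96%, 1.91% and 0.932%, and for TGACGTCA, the cyclic AMP response element, 2.96%, 3.27% and 1.91%. No Zfp promoter held GCGTGGGCG, the site of EGR factors, which was in 1.07% of tested genes and 0.59% of all promoters. A match describes letters in this window and does not show that a factor binds.

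The median number of CpG dinucleotides in the 300-base window was 18 in the Zfp genes, 21 in the tested genes and 7 in all promoters.

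The next 6 Zfp genes in order of p did not pass. Zfp444, a SCAN domain gene, was 22.5 to 31.1 CPM in untreated and 32.8 to 39.9 CPM in RG2833 animals (log2 fold change 0.36 ± 0.10, SE; edgeR adjusted p = 0.0513). Zfp777, a KRAB gene, was 35.0 to 39.9 and 41.1 to 47.7 CPM (0.24 ± 0.07; edgeR adjusted p = 0.0644). Zfp523, the rat counterpart of human ZNF76 and a relative of the snRNA gene activator ZNF143, was 72.1 to 88.4 and 89.5 to 102 CPM (0.24 ± 0.07; edgeR adjusted p = 0.0665). For these 3 genes the treated animals all lay above the untreated animals.

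The groups overlapped for the other 3 of the 6. Zfp46 was 56.5 to 69.5 CPM in untreated and 68.2 to 87.4 CPM in RG2833 animals (log2 fold change 0.28 ± 0.08, SE; edgeR adjusted p = 0.0747). Its counts had decimals in all 10 animals. Zfp358 was 33.7 to 43.1 and 41.8 to 50.5 CPM (0.26 ± 0.08; edgeR adjusted p = 0.0776). Zfp40 was 19.4 to 26.5 and 17.8 to 20.2 CPM (-0.31 ± 0.10; edgeR adjusted p = 0.0835), also with decimals in all 10 animals. At an adjusted p under 0.1 there were 17 Zfp genes, 9.88% of those tested, with 14 higher and 3 lower, against 12.4% of all tested genes, with 698 higher and 768 lower.

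**Figure D2:**
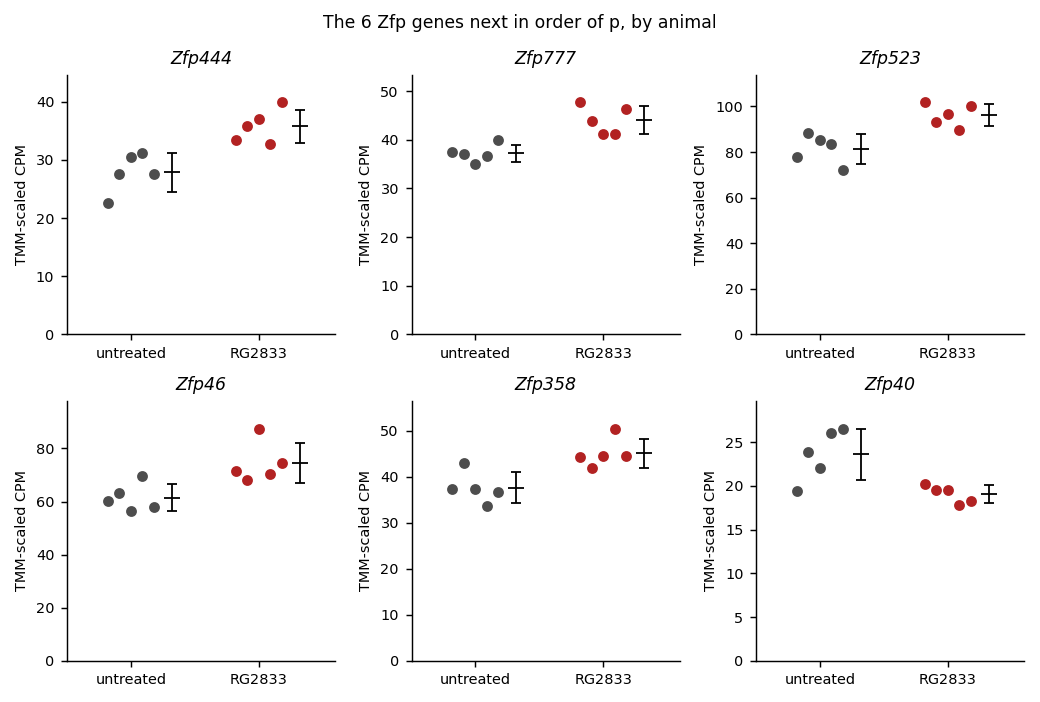
Level in TMM-scaled CPM (y axis, from 0) of the 6 Zfp genes that followed the called ones in order of p, 1 point per animal (dark grey, 5 untreated; red, 5 RG2833), with mean and SD. The groups are apart for Zfp444, Zfp777 and Zfp523 and overlap for Zfp46, Zfp358 and Zfp40, and no gene here passed the threshold.

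Zfp238, now named Zbtb18, encodes a transcriptional repressor (RP58) of pyramidal neurons that the developing cortex requires. It had the most counts of all Zfp genes, 31050 over the 10 animals, and the largest log2 fold change in size among the tested ones, 0.63 ± 0.21 (SE; edgeR adjusted p = 0.0922), but it was not called. Its level was 193, 179, 176, 414 and 245 CPM in untreated animals and 340, 365, 392, 337 and 440 CPM in RG2833 animals. Of the untreated animals, 4 lay below all treated animals, whereas untreated replicate 4 lay above 4 of the 5 treated animals. Without that animal the log2 fold change was 0.92 and the edgeR adjusted p was 0.00103, and in the other fits that left out 1 animal it did not pass (edgeR adjusted p from 0.106 to 0.201). With the excitatory neuron score as a covariate the log2 fold change was 0.05 (edgeR adjusted p = 0.966), and with the ribosomal RNA share it was -0.14 (edgeR adjusted p = 1.00).

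The other Zfp genes with the most counts differed little between the groups. Zfp180 had a log2 fold change of -0.01 ± 0.08 and Zfp91, which encodes a ubiquitin ligase, one of -0.02 ± 0.07 (SE). For Zfp365, whose product binds DISC1, it was 0.13 ± 0.12, and for Zfp385a, an RNA-binding member, 0.12 ± 0.08. Their edgeR adjusted p-values lay between 0.356 and 0.966. Among members with few counts, Zfp819 changed by 0.60 ± 0.29 on the log2 scale (edgeR adjusted p = 0.2305, mean 0.966 CPM untreated and 1.48 CPM treated), Zfp202 by -0.47 ± 0.16 (edgeR adjusted p = 0.101) and Zfp867 by -0.42 ± 0.18 (edgeR adjusted p = 0.167).

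Taking the 172 tested Zfp genes as a group, 98 had a positive and 74 a negative log2 fold change. Their median log2 fold change was 0.04, with quartiles of -0.07 and 0.17, beside a median of 0.00 and quartiles of -0.16 and 0.15 over all tested genes. This balance turned once the share of ribosomal RNA was a covariate (72 positive, 100 negative), with the excitatory neuron score (70 and 102) and with 1 surrogate variable (84 and 88). Zfp genes together held 0.450 to 0.530% of the counts in untreated and 0.493 to 0.546% in RG2833 animals, so the groups overlapped. The mean over Zfp genes of centred log2 CPM was -0.02 ± 0.08 (SD, n = 5) in untreated and 0.02 ± 0.05 (SD, n = 5) in RG2833 animals, and those ranges overlapped as well.

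**Figure D3:**
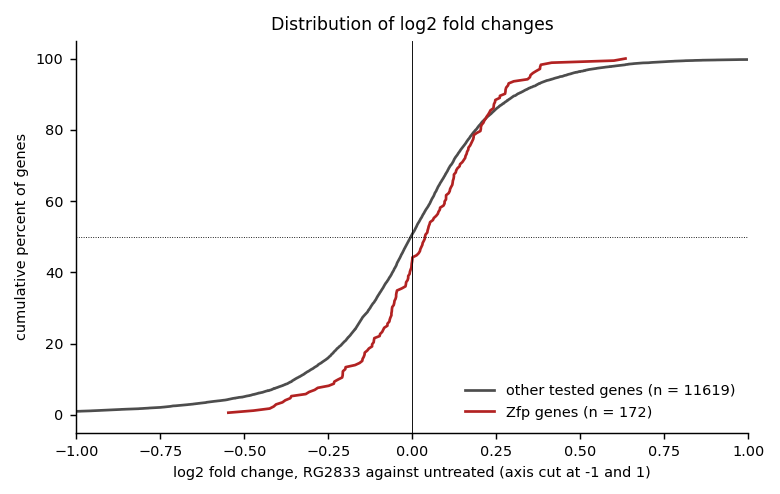
Cumulative percent of genes (y axis) against log2 fold change between RG2833 and untreated animals (x axis, cut at -1 and 1) for 172 Zfp genes (red) and 11619 other tested genes (dark grey). The red curve has a shorter lower tail and crosses the 50% line at 0.04.

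The direction of the differences went with the number of counts. When the tested Zfp genes were divided into 3 classes by total count, the 58 with 113 to 1205 counts had a median log2 fold change of 0.00, and of those with an unadjusted p under 0.05, 1 was higher and 9 were lower. In the 57 with 2809 to 31050 counts the median was 0.10, with 14 higher and 3 lower. The middle 57, with 1256 to 2576 counts, had a median of 0.03, with 6 higher and 1 lower. All tested genes, cut at the same class boundaries with no outer limits, showed the same order, with medians of -0.06, -0.02 and 0.03. There, 165 were higher and 414 lower in the lowest class, 183 higher and 293 lower in the middle class, and 1046 were higher and 786 lower in the highest class. A count depends on transcript length as well as on level, and which of them goes with the direction was not tested.

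Read division between similar genes was set against the direction as well. Of the 172 tested Zfp genes, 65 had a count with decimals in at least 1 animal. These had a median log2 fold change of -0.01, with 2 higher and 7 lower at an unadjusted p under 0.05. The 107 genes with whole counts in every animal had a median of 0.09, with 19 higher and 6 lower. Over all tested genes the same split gave medians of -0.02 and 0.00, with 247 higher and 335 lower among 2059 genes with decimals and 1147 higher and 1158 lower among 9732 with whole counts. Genes with decimals lower at that unadjusted p included Zfp566, Zfp40, Zfp90, Zfp53, Zfp867, Zfp9 and Zfp347. Of these 7, 6 lay in the class with the fewest counts, where 165 of all genes were higher and 414 lower, so the 2 splits overlap. The part of read assignment in this split was not tested.

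**Figure D4:**
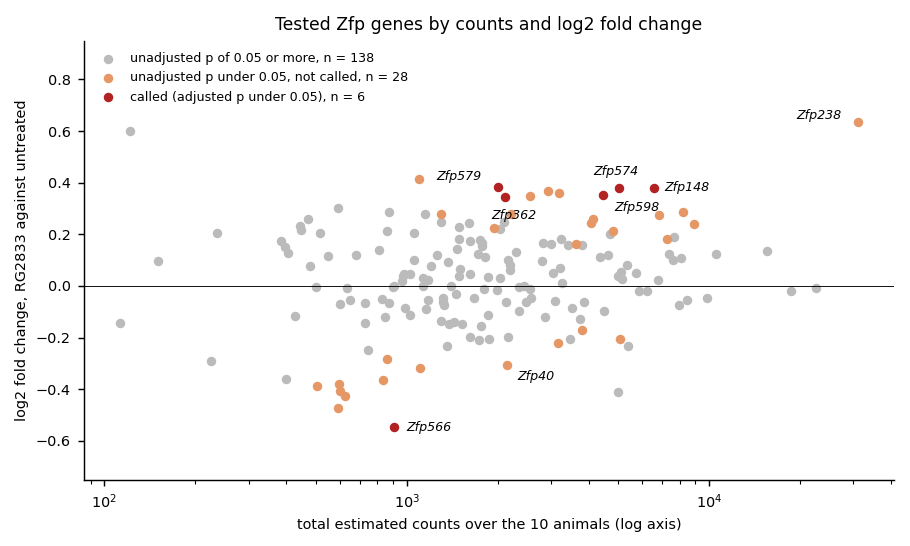
Log2 fold change between RG2833 and untreated animals (y axis) against the total estimated count over the 10 animals (x axis, log scale) for the 172 tested Zfp genes, 1 point per gene. The 6 called genes are red, and the 28 others with an unadjusted p under 0.05 are orange, with the remaining 138 in grey. The orange points with few counts lie mostly below 0 and those with many counts mostly above it.

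Of 18 listed neural and glial regulators, 11 were among the Zfp genes in the table, and 1 of these, Zfp148, was called, 9.09% against 5.08% of all tested genes. The median log2 fold change of the 11 was 0.13, and 6 were positive. Zfp609, whose product binds the cohesin loader NIPBL in cortical progenitors, was 64.9 to 82.2 CPM in untreated and 80.8 to 106 CPM in RG2833 animals (log2 fold change 0.28 ± 0.09, SE; edgeR adjusted p = 0.0872). Zfp703, of the NET family of corepressors, was 17.5 to 30.1 and 29.2 to 38.2 CPM (0.37 ± 0.13; edgeR adjusted p = 0.113). In the opposite direction stood Zfp423, a cofactor of EBF and SMAD proteins, at 35.6 to 90.7 and 31.5 to 54.8 CPM (-0.41 ± 0.22; edgeR adjusted p = 0.2745), where untreated replicate 2 was far above the rest. Zfp191, now named Zfp24 and required for myelination by oligodendrocytes, changed by 0.17 ± 0.10 (log2, SE, edgeR adjusted p = 0.320). For Zfp110, the neurotrophin receptor interacting factor NRIF, the change was -0.06 ± 0.09 (log2, SE, edgeR adjusted p = 0.725).

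Among 7 listed RNA-binding or spindle genes, 5 were in the table and 0 were called (edgeR; 1 with an unadjusted p under 0.05), where the shares over all tested genes were 5.08% and 24.5%. That 1 was Zfp346, which encodes a protein that binds double-stranded RNA, at 32.1 to 35.9 CPM in untreated and 35.5 to 40.4 CPM in RG2833 animals (log2 fold change 0.16 ± 0.07, SE; edgeR adjusted p = 0.164). Zfp207, the spindle protein BuGZ, changed by 0.11 ± 0.09 and Zfp638 by -0.05 ± 0.07 (log2, SE).

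Of 11 listed genes of chromatin, imprinting and ubiquitin or SUMO transfer, 7 were in the table and 0 were called (edgeR; 1 with an unadjusted p under 0.05, Zfp219), beside the same shares of 5.08% and 24.5% over all tested genes. Zfp57, which protects methylation at imprinted loci together with TRIM28, was 10.2 to 15.1 CPM in untreated and 11.7 to 16.5 CPM in RG2833 animals (log2 fold change 0.25 ± 0.14, SE; edgeR adjusted p = 0.285). Zfp410, an activator of the NuRD gene Chd4, changed by -0.12 ± 0.07, and Zfp451, a SUMO ligase gene, by -0.01 ± 0.11 (log2, SE; edgeR adjusted p = 0.328 and 0.958).

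The partners through which KRAB members silence chromatin were taken from a list of 28 genes, of which 22 were in the table and passed the filter. Cbx5, Rbbp4 and Sumo2 fell, and 0 rose, so 13.6% were called against 5.08% of all tested genes. The median of the list was 0.00, with 11 genes positive and 11 negative, beside 0.00 over all tested genes.

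Cbx5, which encodes heterochromatin protein HP1 alpha, was 33.1, 39.3, 34.8, 31.6 and 34.6 CPM in untreated animals and 27.3, 27.6, 27.1, 26.7 and 25.1 CPM in RG2833 animals. The groups did not overlap (log2 fold change -0.37 ± 0.08, SE; edgeR adjusted p = 0.0237). Rbbp4, a histone-binding subunit of NuRD, was 82.5 to 87.3 CPM in untreated animals. In RG2833 animals it was 66.3 to 67.7 CPM in 4 and 79.1 CPM in replicate 4, still below the untreated range (-0.30 ± 0.07; edgeR adjusted p = 0.0272), and its counts had decimals in 9 of 10 animals. Sumo2, the SUMO modifier with which TRIM28 recruits its partners, was 229 to 269 and 177 to 222 CPM (-0.30 ± 0.08; edgeR adjusted p = 0.0489). In the 10 fits that left out 1 animal, Cbx5 was called in 4, Rbbp4 in 3 and Sumo2 in 2. None of the 3 was called by edgeR with the ribosomal RNA share, the excitatory neuron score, 1 surrogate variable or the replicate block (0, 3, 4 and 8 genes of the list with an unadjusted p under 0.05), and 1 was with the choroid plexus score. With the ribosomal RNA share the log2 fold changes were -0.17 for Cbx5, -0.28 for Rbbp4 and -0.18 for Sumo2, and with the replicate block they were -0.37, -0.31 and -0.31.

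The central genes of this pathway were not called. Trim28 averaged 158 ± 6.58 CPM untreated against 169 ± 8.35 CPM with RG2833 (SD, n = 5), and its log2 fold change, 0.10 ± 0.06 (SE), had an edgeR adjusted p of 0.364. Setdb1 was 53.4 ± 7.01 and 51.0 ± 4.83 CPM (-0.07 ± 0.10; edgeR adjusted p = 0.714), and Hdac1, a target of RG2833, was 40.9 ± 3.33 and 37.3 ± 2.61 CPM (-0.13 ± 0.08; edgeR adjusted p = 0.329).

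**Figure D5:**
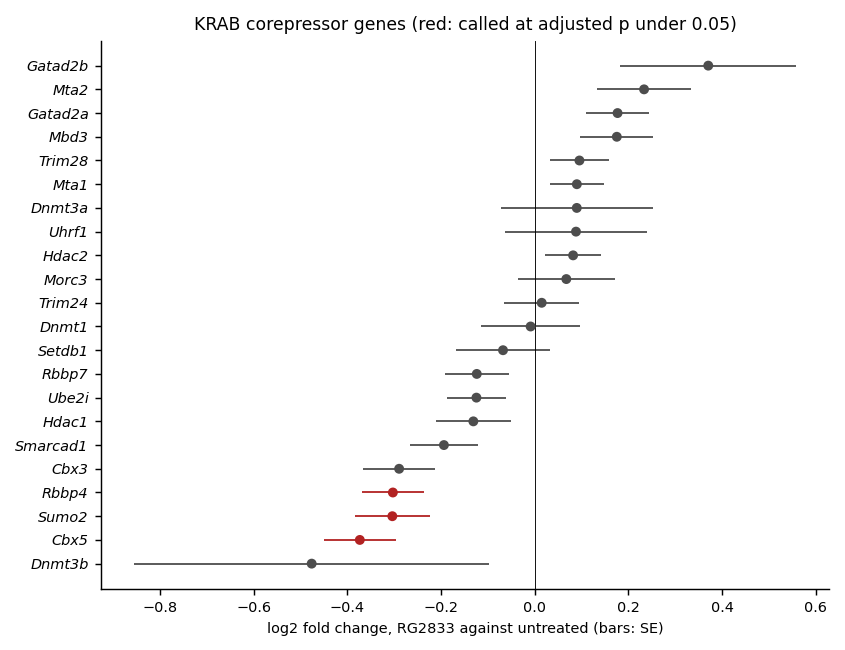
Log2 fold change between RG2833 and untreated animals (x axis) with its SE for the 22 tested genes of KRAB-directed silencing (y axis, 1 row per gene, ordered by value). The 3 called genes, Cbx5, Sumo2 and Rbbp4, are red and lie between -0.37 and -0.30, and Trim28 (0.10) and Setdb1 (-0.07) lie nearer to 0.

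Zinc finger genes under other symbols were counted in the same fit. Of 33 tested Zbtb genes, which join a BTB domain to C2H2 fingers, 1 was called, Zbtb7a (log2 fold change 0.62, edgeR adjusted p = 0.00724), which is 3.03% against 5.08% of all tested genes. A positive log2 fold change was found in 24 of them, 72.7%, against 49.4% of all tested genes and 57.0% of the Zfp genes, and the median was 0.10. Of the 4 tested Zscan and Zkscan genes 0 were called (edgeR; 0 with an unadjusted p under 0.05). The 3 genes of the Zfp36 family, whose products bind AU-rich mRNA, were not called either. Zfp36, Zfp36l1 and Zfp36l2 had log2 fold changes of 0.22 ± 0.16, -0.04 ± 0.11 and -0.02 ± 0.10 (SE; edgeR adjusted p from 0.402 to 0.921). No difference between these families and the Zfp genes was tested.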

How the data were processed

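Estimated counts per gene symbol, 1 column per animal, were deposited by the authors as RSEM expected counts with 2 decimals and no normalization. The authors also deposited a second table, a normalized signal in CPM after TMM scaling, per the file name. The submitters' processing notes name bcl2fastq 2.17, Bowtie2 2.1.0, RSEM 1.2.15, edgeR and genome build rn6, with no order, and a strand-specific mRNA kit was used per the labels' protocols. RSEM divides reads between similar genes, which can shift counts between paralogs, and the gene annotation is not given in the sources used here.

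Columns were assigned by the sample title in their heading. The expected counts were then rounded, and filterByExpr by group kept 11791 genes for the quasi-likelihood test of edgeR (version 4.0.16, under R 4.3.3; TMM, all 10 samples, no covariate, Benjamini-Hochberg adjustment, threshold 0.05). The SE was taken as |log2 fold change| over the root of the F statistic, and log2 CPM used a prior count of 2. Alternatives used DESeq2 1.42.0, limma 3.58.1, which also ran on the deposited signal, and sva 3.50.0. The procedure was tested on simulated data.

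Libraries of 1 group differed by more than sampling noise (chi-square per degree of freedom of 4.74 to 37.9 over 20 pairs). The replicate numbers 1 to 5 name different animals, and deviations of same-numbered samples correlated at -0.07 on average (-0.32 to 0.15), so the main test has no pairing. Members, lists and alternatives were chosen with earlier results of these data known. The genes named were the called members, the 6 with the next smallest p, the 5 with the most counts, the 5 with the largest change at a mean log2 CPM of at least 0, and called or central genes of the lists, with Trim28, Setdb1 and Hdac1. Other genes named were chosen after their values were seen. Symbols were matched to RefSeq GRCr8: 166 of the 175 kept their symbol and 9 were found under another name, with Zfp978 now under Zfp772, which is also in the table. No symbol of the Znf form was in the table. Protein domains were not analysed here.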

Additional observations from a re-analysis of the deposited data

Results flagged for a closer look

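Among 52 groups of 5 values (each named gene in each treatment group), 3 had 1 animal whose gap to its nearest neighbour, as a part of the whole range, passed 0.71, the 95% critical value of Dixon for 5 animals. By chance about 1 in 20 groups would do so.

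In RG2833 replicate 4, Zfp574 stood at 48.9 CPM, below the 57.1 to 59.7 CPM of the other treated animals, a gap of 0.754 of the range. Rbbp4 stood at 79.1 CPM in that same animal, above the 66.3 to 67.7 CPM of the others, a gap of 0.893 of the range. In both genes this animal was the treated one nearest to the untreated values.

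In untreated replicate 4, Zfp238 stood at 414 CPM, above the 176 to 245 CPM of the 4 others, a gap of 0.711 of the range.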

How the results depend on the processing

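The 6 called Zfp genes became 3 with no filter on low counts, 13 with DESeq2's Wald test, 17 at an adjusted p under 0.1 and 1 with a minimum absolute log2 fold change of 0.5. The count was again 6 with DESeq2 size factors, with genes limited to a mean count of 50 or more, with limma-voom, and with the deposited signal under limma trend, and 4 with library totals only. With edgeR, 0 were called with the replicate block, the ribosomal RNA share, the choroid plexus score, the excitatory neuron score or 1 surrogate variable (28, 10, 24, 12 and 21 with an unadjusted p under 0.05). The same-numbered animals are not paired, and in the block fit the 6 genes had edgeR adjusted p-values of 0.0576 to 0.108, with log2 fold changes of 0.35 to 0.39 for the 5 higher and -0.56 for Zfp566. With the choroid plexus score these were 0.32 to 0.38 and -0.55, and with 1 surrogate variable 0.17 to 0.36 and -0.72. Of all tested genes, 599 were called, against 1295 with DESeq2's Wald test, 180 with the block, 194 with the choroid plexus score, 5 with 1 surrogate variable and 98 to 1556 when 1 animal was left out.

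The median log2 fold change of the Zfp genes, 0.04, was -0.060 with the ribosomal RNA share and -0.036 with the excitatory neuron score, -0.01 with 1 surrogate variable, and 0.01 to 0.06 when 1 animal was left out. The 3 called corepressor genes became 0 with the block, the ribosomal RNA share, the excitatory neuron score, 1 surrogate variable or the minimum change of 0.5, 1 with the choroid plexus score, 2 with no filter, 4 with library totals only, a mean count of 50 or more, limma-voom, limma trend, an adjusted p under 0.1 or DESeq2's Wald test, and 0 to 4 when 1 animal was left out. The 1 called gene of other zinc finger symbols became 2 with DESeq2's Wald test, 0 with the ribosomal RNA share, the excitatory neuron score or 1 surrogate variable, and 1 to 2 when 1 animal was left out.

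Log2 fold changes turned negative with the ribosomal RNA share for Zfp238 (-0.14) and Zfp819 (-0.17). When 1 animal was left out, those of Zfp180 (-0.057 to 0.038) and Zfp91 (-0.052 to 0.0062) crossed 0. The other 22 genes named by rule kept their direction in every fit that tested them. The cause of these differences between fits was not tested.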

Other observations

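Many Zfp genes lie side by side. Of the Zfp genes placed on the GRCr8 assembly, runs of at least 3 with at most 3 other protein-coding genes between neighbours held 43 tested genes, and 99 tested Zfp genes stood alone. In the runs, 22 genes had a positive and 21 a negative log2 fold change (median 0.02), and among the genes standing alone, 62 were positive and 37 negative (median 0.06). The run of Zfp398, Zfp282, Zfp956, Zfp777, Zfp746 and Zfp467 on chromosome 4 had 5 of 6 genes positive, with a median of 0.13. The run of Zfp799, Zfp870, Zfp472, Zfp763 and Zfp563 on chromosome 7 had 4 of 5 negative, with a median of -0.08. The highest median of these runs, 0.287, was that of Zfp865, Zfp524 and Zfp579 on chromosome 1, which held the called Zfp579. The lowest, -0.115, was that of Zfp354c, Zfp879 and Zfp2 on chromosome 10. Zfp566, which fell, stood in a run with Zfp74, Zfp14, Zfp260 and Zfp382 on chromosome 1, whose 5 genes ranged from -0.55 to 0.12, and none of the other 4 was called (edgeR adjusted p threshold 0.05). These runs were looked at after their values were known, and no test was made.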
